A study of Arabidopsis thaliana with 45 samples.

Results

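The genes described here are 38 loci of the DNA replication machinery of Arabidopsis thaliana, taken from a list of locus codes by role in replication, a list drawn up with earlier results of these data known. They are the 6 subunits of the MCM2-7 helicase, the sliding clamp genes PCNA1 and PCNA2, the clamp loader subunit RFC1, 7 genes of the origin recognition complex, 4 licensing genes of the CDC6 and CDT1 kinds, CDC45 with 3 GINS subunits, 3 ribonucleotide reductase genes, 4 DNA polymerase subunits, FEN1, LIG1, RPA70B, and the regulators E2FA, E2FB, E2FC and RBR1. All 38 were measured, each by 1 probe set, out of 27827 probe sets on the arrays. Transcript levels were measured in imbibed seeds of NILDOG1-Cvi, a DELAY OF GERMINATION 1 near-isogenic line whose background is Landsberg erecta and whose introgressed segment comes from Cvi. All groups carry that segment. Seeds that were dormant or non-dormant took up either water or cordycepin, an adenosine analogue used to block transcription, for 6 h or 24 h. Total RNA was hybridised on 24 arrays and polysomal RNA, the transcripts loaded with ribosomes, on 21 arrays. Crossing these factors gives 16 groups. Of these 13 hold 3 arrays, and 3 polysomal groups at 24 h hold 2 arrays, those of dormant seeds with either treatment and of non-dormant seeds with cordycepin. A replicate is a bulk of seeds from 8 plants. The labels do not say how seeds were made non-dormant.

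Before a cell copies its DNA, the origin recognition complex marks replication origins, and CDC6 and CDT1 load the ring-shaped MCM2-7 helicase there, a step called licensing. CDC45 and GINS then join MCM2-7 to form the active helicase, RPA coats the single strands, PCNA holds the polymerases on the template, and FEN1 and DNA ligase 1 finish the lagging strand. Ribonucleotide reductase makes the deoxynucleotides. Many of these genes carry binding sites for E2F transcription factors, which the retinoblastoma-related protein RBR1 restrains. Cells of a dry seed are mostly arrested before DNA synthesis, and replication resumes in the embryo around germination.

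Values are log2 expression on the scale the authors deposited, and levels are compared between groups for the same gene only, since probe sets differ in how strongly they hybridise. The arrays had medians of 3.86 to 4.32 over all probe sets, and replicate arrays of a group correlated at 0.9584 to 0.986 across probe sets. Precision is limited by how many arrays a group has. The labels go against each other in places: their treatment protocol describes freshly harvested dry seeds, and their molecule field gives total RNA for all arrays, whereas titles give imbibition times and polysomal RNA, and the titles were followed here. As a check of the tissue, 8 seed storage genes had group means between 6.77 and 12.62. In bulk samples, fewer cells of a type and less RNA per cell cannot be told apart.

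The median level of the replication genes was lower at 6 h than at 24 h, and at 24 h it was higher in non-dormant than in dormant seeds for each treatment and RNA type. The median over the 38 genes, taken on each array and averaged within a group, lay between 4.44 and 4.68 in all 8 groups at 6 h. At 24 h it was 5.21 ± 0.17 in total RNA of dormant seeds in water and 6.19 ± 0.05 in that of non-dormant seeds (SD, n = 3 each). In polysomal RNA it was 5.64 ± 0.21 (n = 2) and 6.65 ± 0.16 (n = 3). With cordycepin the 24 h values were 5.04 ± 0.07 and 5.75 ± 0.07 in total RNA (n = 3 each) and 5.38 ± 0.37 and 6.16 ± 0.31 in polysomal RNA (n = 2 each). The highest of the dormant arrays at 24 h, a polysomal one in water, had a member median of 5.79. At 24 h the non-dormant arrays lay above that value in water and in polysomal RNA with cordycepin, while the lowest total RNA array with cordycepin stood at 5.69. Of the 38 genes, 27 had their highest group mean in polysomal RNA of non-dormant seeds after 24 h in water. How many of all probe sets had their highest mean in that group was not counted.

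**Figure D1:**
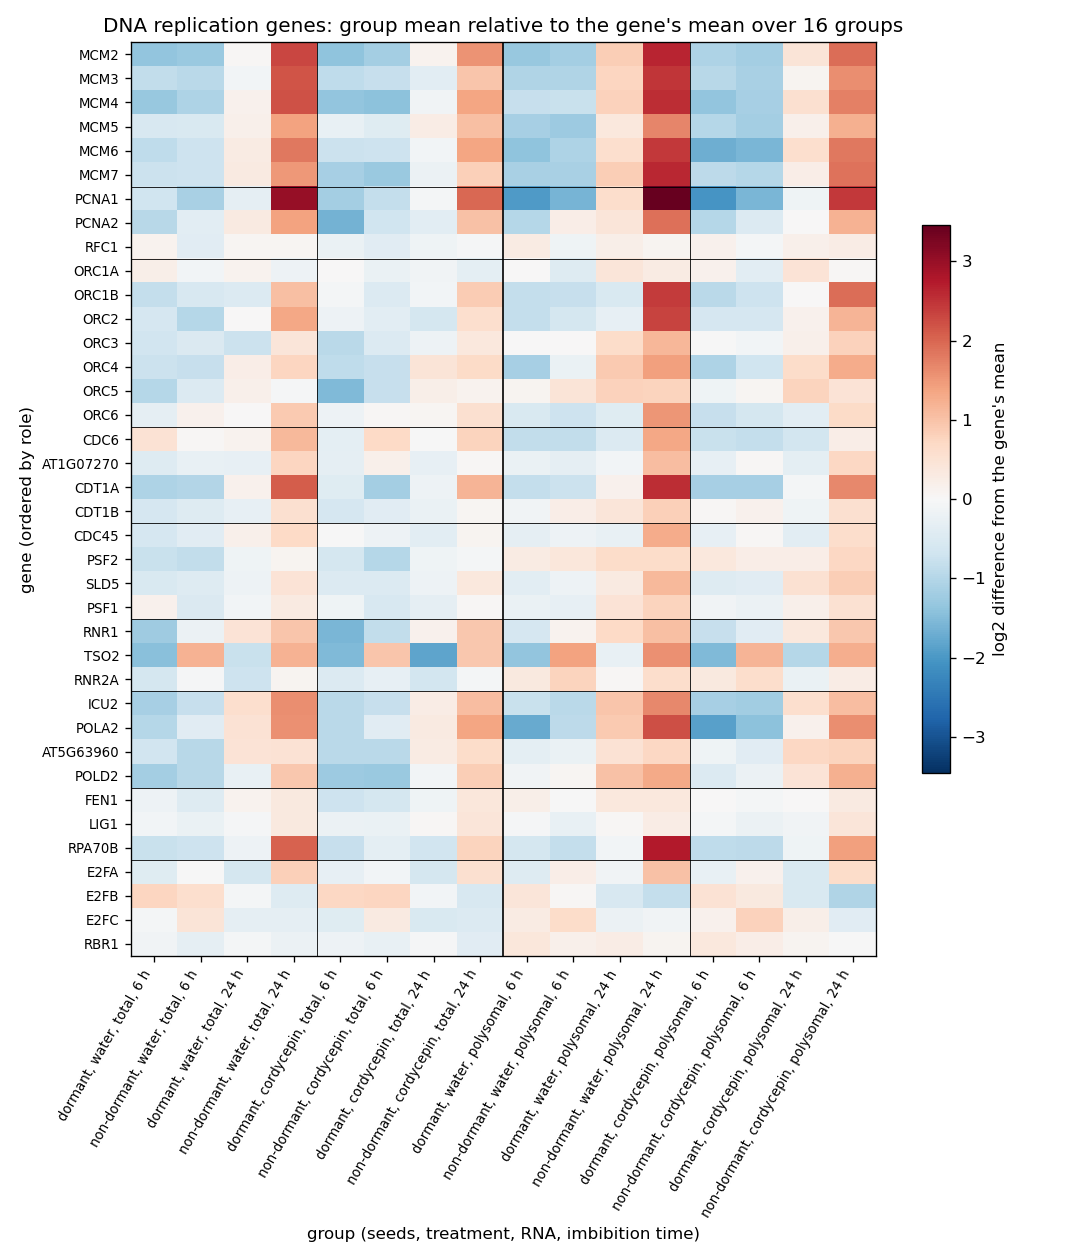
Heat map of the 38 replication genes (rows, ordered by role) in the 16 groups (columns). Colour gives the group mean minus that gene's mean over the 16 groups, in log2 units. The 24 h columns of non-dormant seeds are above the gene's own mean for most rows in water and in cordycepin, while E2FB runs the other way and RFC1, LIG1 and RBR1 show little colour, with ranges of group means of 0.68, 0.68 and 0.80.

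The comparison of non-dormant with dormant seeds after 24 h in water asks which replication genes differ with dormancy once seeds have taken up water. In total RNA 23 of 38 genes were higher in non-dormant seeds and 0 were lower (limma, adjusted p under 0.05). Over all 27827 probe sets 11.6% were called higher, and 2423 probe sets were called lower. Of the 23 genes, 19 were at least 2-fold higher. An unadjusted p under 0.05 was found for 28 members and 30% of all probe sets. The median log2 difference was 1.00 for the 38 genes and -0.05 for all probe sets. The arrays of non-dormant seeds lay above all arrays of dormant seeds for 29 genes, against 19.6% of all probe sets. They lay below all of them for E2FB and RBR1, neither called, against 18.4% of all probe sets. In polysomal RNA 21 genes were higher and 0 lower, where 10.3% of all probe sets were called higher and 2263 probe sets lower. The median was 0.97 against -0.06, and 22 genes and 27.9% of all probe sets had an unadjusted p under 0.05. The groups did not overlap, with non-dormant seeds higher, for 25 genes and 18.8% of all probe sets. The total and polysomal comparisons have no array in common, but both take their spread from the same fit. They shared 19 genes, which are 82.6% of the first list and 90.5% of the second, where the shares over all probe sets called higher were 68.9% and 77.2%.

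Markers of seed tissues also differed in that comparison. All 8 storage genes, among them the cruciferin gene CRU2 (-2.06) and the 2S albumin gene SESA2 (-2.13), were lower in non-dormant seeds, and their summed log2 level was 74.3 to 78.9 per array against 88.3 to 90.1. Of 8 endosperm markers, the expansin gene EXPA2 (4.96) and NCED6 (1.04) were higher and EPR1 (-1.31) was lower, and the summed level was 33.7 to 34.9 against 29.4 to 31.9. None of 8 seed coat markers was called in total RNA (1 at an unadjusted p under 0.05, against 30% of all probe sets), with sums of 25.5 to 27.1 against 24.8 to 25. In polysomal RNA the 8 storage genes were also lower, with sums of 72.1 to 75.8 against 86.4 to 87.0, the endosperm sums were 31.2 to 33.0 against 26.4 to 29.0, and the seed coat genes TTG2 (1.50) and MUM4 (0.86) were higher, both named here after their values were seen. The higher endosperm sums rested on EXPA2, with group means of 8.27 against 3.30 in total and 8.30 against 3.70 in polysomal RNA. The means of EPR1, PHE1, FWA, FIS2 and AGL62 were lower in non-dormant seeds in both RNA types. That of NCED6 was higher in both, and that of RGE1 was higher in total RNA only. No marker was at 0. AGL62 and FIS2, which mark the early endosperm, had group means of 1.09 to 1.51 and 1.57 to 2.04 in every group, under the lower quartile of the arrays (2.24 to 2.92). The part of these markers in the differences of the replication genes was not tested.

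All 6 subunits of the MCM2-7 helicase, the ring that unwinds the DNA, were higher in non-dormant seeds at 24 h. MCM2 (AT1G44900) read 6.78, 6.89 and 6.47 in total RNA of non-dormant seeds and 4.37, 4.49 and 4.39 in that of dormant seeds. MCM3 (AT5G46280) read 6.90, 6.83 and 6.44 against 4.38, 4.73 and 4.26, and MCM4 (AT2G16440) 7.84, 7.71 and 7.32 against 5.30, 5.73 and 5.69. For these 3 genes the lowest non-dormant array stood well over 1 log2 unit above the highest dormant one. The differences were 2.30 ± 0.31 for MCM2, 2.27 ± 0.24 for MCM3 and 2.05 ± 0.23 for MCM4 (SE, n = 3 against 3; limma adjusted p = 3.02e-07, 2.64e-09 and 8.01e-09), which are 4.92-, 4.81- and 4.14-fold.

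The other 3 subunits differed by less. MCM5 (AT2G07690) read 7.02, 6.97 and 6.71 against 5.84, 5.35 and 5.89. MCM6 (AT5G44635) read 6.58, 6.42 and 6.42 against 4.93, 4.79 and 5.16. MCM7 (AT4G02060), known in plants as PROLIFERA, read 6.02, 6.14 and 5.95 against 4.72, 4.92 and 4.88. None of the 3 overlapped between dormant and non-dormant seeds, and the differences were 1.20 ± 0.19, 1.52 ± 0.28 and 1.19 ± 0.25 (limma adjusted p = 6.39e-06, 9.5e-05 and 0.000358). In polysomal RNA the 6 differences lay between 1.31 (MCM5) and 1.84 (MCM6). MCM7 polysomal RNA, for example, read 7.21, 7.13 and 7.03 in non-dormant and 5.44 and 5.34 in dormant seeds, a difference of 1.74 ± 0.28 (n = 3 against 2, limma adjusted p = 8.25e-06). Every MCM gene remained called when any 1 array of the compared groups was left out.

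PCNA1 (AT1G07370), 1 of the genes for the sliding clamp, had the largest difference of the 38 genes in total RNA. Its arrays read 7.68, 7.33 and 7.05 in non-dormant and 3.64, 4.30 and 4.11 in dormant seeds, a gap of several log2 units between groups. The difference was 3.34 ± 0.33, or 10.1-fold (limma adjusted p = 4.09e-10). In polysomal RNA PCNA1 read 7.89, 8.09 and 7.39 against 5.04 and 4.84, a difference of 2.85 ± 0.37. PCNA2 (AT2G29570) encodes a closely similar clamp protein. It read 8.21, 7.68 and 7.59 against 6.98, 6.89 and 6.37 in total RNA, again without overlap, and differed by 1.08 ± 0.24 (limma adjusted p = 0.000956), and by 1.48 ± 0.27 in polysomal RNA. Whether the probes tell PCNA1 from PCNA2, or ORC1A from ORC1B, is not known from the labels. RFC1 (AT5G22010), the large subunit of the complex that opens the clamp, read 7.53, 7.64 and 7.63 against 7.48, 7.53 and 7.76, with overlap and a difference of 0.01 (95% interval -0.31 to 0.33).

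**Figure D2:**
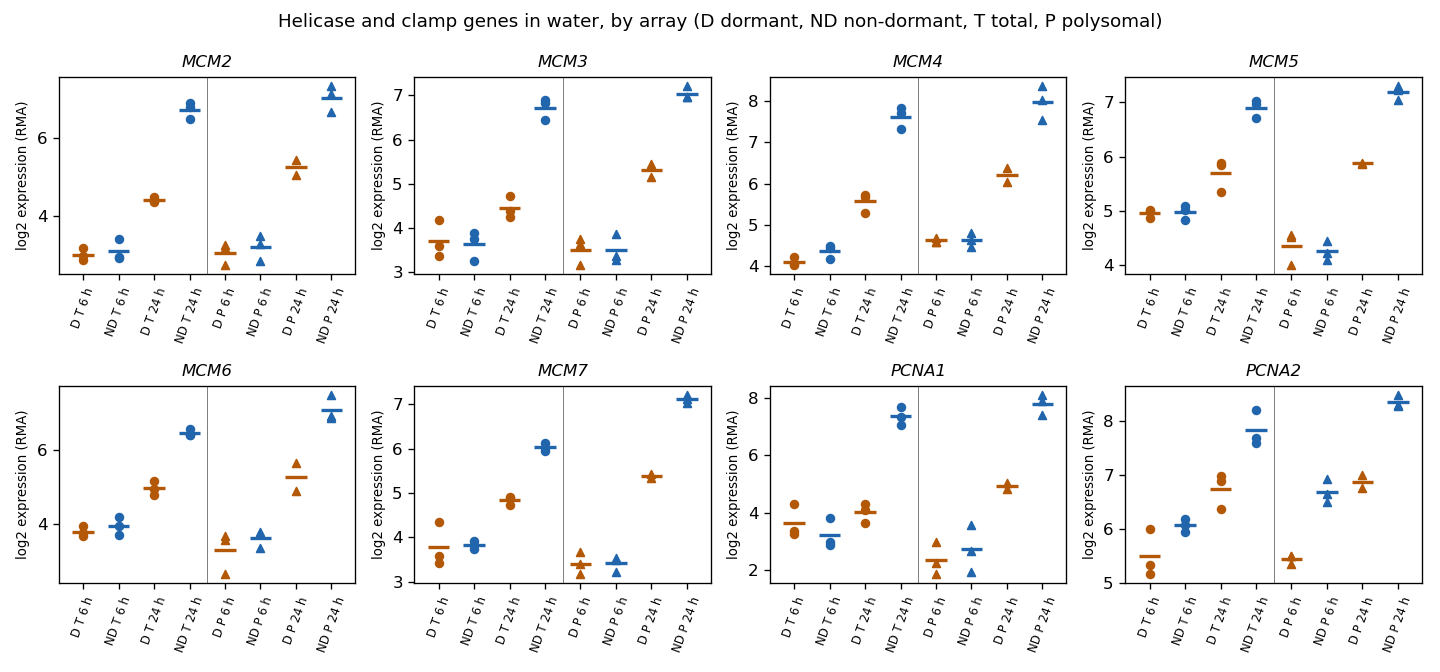
Log2 expression of MCM2 to MCM7, PCNA1 and PCNA2 in each water array, by time and RNA type (1 point per array, line at the group mean; orange dormant, blue non-dormant; circles total RNA, triangles polysomal RNA). At 6 h the colours mix for MCM2 to MCM7 and PCNA1, and at 24 h every blue point lies above every orange point of the same RNA type in all 8 panels.

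Genes of the origin recognition complex were divided. ORC1B (AT4G12620), 1 of the genes for the largest subunit, read 3.73, 3.52 and 3.39 in total RNA of non-dormant seeds and 2.14, 1.99 and 2.01 in that of dormant seeds, with no overlap. Its dormant means in both RNA types were below the lower quartile of the arrays, which leaves the size of its differences uncertain. The difference was 1.50 ± 0.26 in total RNA and 2.95 ± 0.29 in polysomal RNA, where it read 4.91, 4.87 and 4.98 against 2.43 and 1.52 (limma adjusted p = 2.77e-05 and 5.22e-10). Its paralogue ORC1A (AT4G14700) read 5.32, 5.48 and 5.94 against 5.72, 6.12 and 5.83, overlapped, and gave -0.31 (95% interval -1.11 to 0.49).

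ORC2 (AT2G37560) read 5.01, 4.55 and 4.78 in total RNA of non-dormant seeds against 4.34, 2.97 and 3.1, where 1 dormant array was much nearer to the non-dormant arrays than the other two. The difference was 1.31 ± 0.34 in total and 2.63 ± 0.38 in polysomal RNA. ORC6 (AT1G26840) differed by 0.88 ± 0.29 and 1.93 ± 0.32 (limma adjusted p = 0.0239 and 1.64e-05). ORC3 (AT5G16690) was called in total RNA only (1.17 ± 0.24), and its polysomal difference was 0.51 (95% interval -0.03 to 1.05). ORC4 (AT2G01120) and ORC5 (AT4G29910) were called in neither, with total RNA differences of 0.51 (0.00 to 1.02) and -0.21 (-0.72 to 0.29). The ORC6 call in total RNA was lost when any of 4 arrays was left out (dormant 1 or 3, non-dormant 1 or 3).

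All 4 licensing genes were higher in total RNA of non-dormant seeds at 24 h. CDT1A (AT2G31270), which helps CDC6 to load the helicase, read 6.27, 6.20 and 6.12 against 3.90, 4.62 and 4.25, and the gap between the groups was far wider than the spread within them. The difference was 1.94 ± 0.25 in total and 2.40 ± 0.28 in polysomal RNA, which is 3.84- and 5.28-fold (limma adjusted p = 1.99e-07 and 2.89e-08). CDT1B (AT3G54710) read 5.60, 5.61 and 5.61 against 4.45, 4.90 and 4.95. It differed by 0.84 ± 0.25 in total RNA and was not called in polysomal RNA (0.42, 95% interval -0.14 to 0.98).

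CDC6 (AT2G29680) read 4.01, 4.16 and 4.21 against 3.55, 2.90 and 2.94, a difference of 0.99 ± 0.29, and 1.81 ± 0.33 in polysomal RNA. AT1G07270, the second CDC6 locus of the list, read 3.25, 3.12 and 3.11 against 2.06, 1.68 and 2.72, without overlap though near the bottom of the scale, a difference of 1.01 ± 0.30, and 1.16 ± 0.34 in polysomal RNA. These small differences rested on few arrays. The total RNA calls were lost without 1 dormant array for CDT1B (array 1) and CDC6 (2 or 3), and for AT1G07270 without dormant array 2 or non-dormant array 1.

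For CDC45 and GINS, which complete the active helicase, no gene was called in total RNA at 24 h (limma, with CDC45 and SLD5 at an unadjusted p of 0.0169 and 0.0117). CDC45 (AT3G25100) read 3.89, 3.88 and 4.15 against 3.15, 3.66 and 3.57, so the groups did not overlap, but the difference of 0.51 had an adjusted p of 0.0744 and a 95% interval of 0.10 to 0.93. In polysomal RNA CDC45 read 4.82, 4.50 and 4.40 against 3.39 and 2.69, a difference of 1.54 ± 0.23 (limma adjusted p = 2.78e-06). The GINS subunit SLD5 (AT5G49010) differed by 0.65 in total RNA (adjusted p = 0.0556) and by 0.82 ± 0.27 in polysomal RNA, where the call (adjusted p = 0.0291) was lost without any 1 of the 5 arrays. PSF1 (AT1G80190) and PSF2 (AT3G12530) were called in neither, with total RNA differences of 0.43 (-0.05 to 0.90) and 0.23 (-0.20 to 0.66).

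Ribonucleotide reductase makes the deoxynucleotides from a large subunit, RNR1 (AT2G21790), and small subunits that include TSO2 (AT3G27060) and RNR2A (AT3G23580). TSO2 was higher in non-dormant seeds in all 8 comparisons, at both times, in both RNA types and with or without cordycepin. At 6 h in water its total RNA already read 8.62, 8.39 and 8.04 in non-dormant and 5.64, 5.41 and 6.06 in dormant seeds, a wide gap, and the difference was 2.65 ± 0.19, or 6.27-fold (limma adjusted p = 6.6e-12). At 24 h it read 8.49, 8.42 and 8.17 against 6.41, 6.32 and 6.44, a difference of 1.97 ± 0.19 (adjusted p = 2.72e-10). The 24 h arrays of dormant seeds therefore stood above their own 6 h arrays, while those of non-dormant seeds covered the same levels at both times.

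RNR2A read 9.31, 9.36 and 9.19 in total RNA of non-dormant seeds at 24 h against 8.52, 8.46 and 8.49, without overlap, a difference of 0.80 ± 0.13 (limma adjusted p = 1.4e-05). In polysomal RNA it differed by 0.56 ± 0.15, and that call was lost without the first of the 2 dormant arrays. RNR1 read 8.29, 8.38 and 8.03 against 7.82, 7.80 and 7.66. Its groups did not overlap, yet the difference of 0.48 was not called (95% interval 0.06 to 0.89, adjusted p = 0.106).

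**Figure D3:**
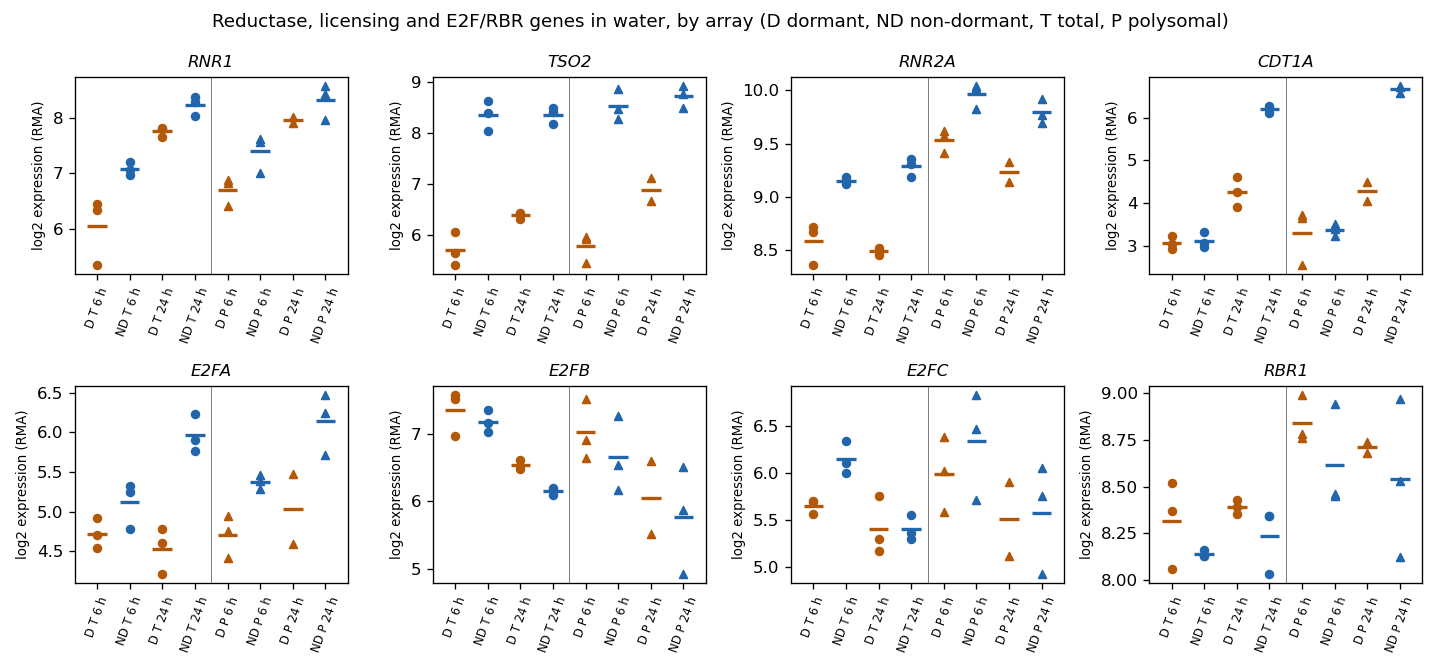
Log2 expression of RNR1, TSO2, RNR2A, CDT1A, E2FA, E2FB, E2FC and RBR1 in each water array, drawn as in the plot of the MCM genes (1 point per array, line at the group mean; orange dormant, blue non-dormant; circles total RNA, triangles polysomal RNA). TSO2 is separated by dormancy at both times, CDT1A at 24 h, and RBR1 stays between 8.03 and 8.99 throughout.

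Of the DNA polymerase genes, ICU2 (AT5G67100), the catalytic subunit of polymerase alpha, which starts each new strand, read 6.23, 6.51 and 6.43 in non-dormant against 5.17, 5.24 and 5.68 in dormant seeds. Its second subunit POLA2 (AT1G67630) read 6.80, 6.72 and 6.69 against 5.01, 5.91 and 6.08. POLD2 (AT2G42120), the small subunit of polymerase delta, read 7.62, 7.45 and 7.29 against 6.74, 6.19 and 5.81. None of the 3 overlapped, and the total RNA differences were 1.03 ± 0.26, 1.07 ± 0.25 and 1.20 ± 0.21 (limma adjusted p = 0.00322, 0.00168 and 3.45e-05). In polysomal RNA POLA2 was called (1.33 ± 0.28), ICU2 was not (0.69, 95% interval 0.10 to 1.28), nor was POLD2 (0.32, -0.15 to 0.80). AT5G63960, which the list holds among the DNA polymerases, was called in neither, with 0.03 in total RNA (-0.52 to 0.59).

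RPA70B (AT5G08020), a large subunit of the single-strand binding protein RPA, read 5.37, 5.24 and 5.50 in total RNA of non-dormant seeds and 3.18, 2.78 and 3.46 in that of dormant seeds. In polysomal RNA it read 6.17, 5.53 and 6.47 against 2.92 and 3.55. Both gaps were wide, with differences of 2.23 ± 0.35 and 2.82 ± 0.39 (4.69- and 7.06-fold, limma adjusted p = 5.23e-06 and 6.84e-07). LIG1 (AT1G08130), the ligase that seals the fragments, and AT5G26680, listed as FEN1, were not called, with total RNA differences of 0.35 (95% interval 0.00 to 0.71) and 0.19 (-0.16 to 0.54), although their arrays did not overlap. LIG1, for instance, read 7.97, 8.09 and 7.90 against 7.59, 7.71 and 7.60.

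Among the regulators only E2FA was called. E2FA (AT2G36010), an activating E2F factor, read 5.90, 6.23 and 5.77 in non-dormant against 4.60, 4.21 and 4.78 in dormant seeds, clearly apart, and differed by 1.44 ± 0.24 in total and 1.11 ± 0.27 in polysomal RNA (limma adjusted p = 1.32e-05 and 0.00199), the latter lost without the second dormant array. E2FB (AT5G22220), another activating E2F factor, read 6.09, 6.20 and 6.17 against 6.61, 6.48 and 6.52, and its difference of -0.38 had a 95% interval of -1.16 to 0.39. E2FC (AT1G47870), a repressive E2F factor, read 5.29, 5.36 and 5.55 against 5.17, 5.29 and 5.75, a difference of 0.00 (-0.68 to 0.67). RBR1 (AT3G12280), the retinoblastoma-related protein, gave -0.16 (-0.50 to 0.19) from 8.34, 8.34 and 8.03 against 8.35, 8.43 and 8.39.

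**Figure D4:**
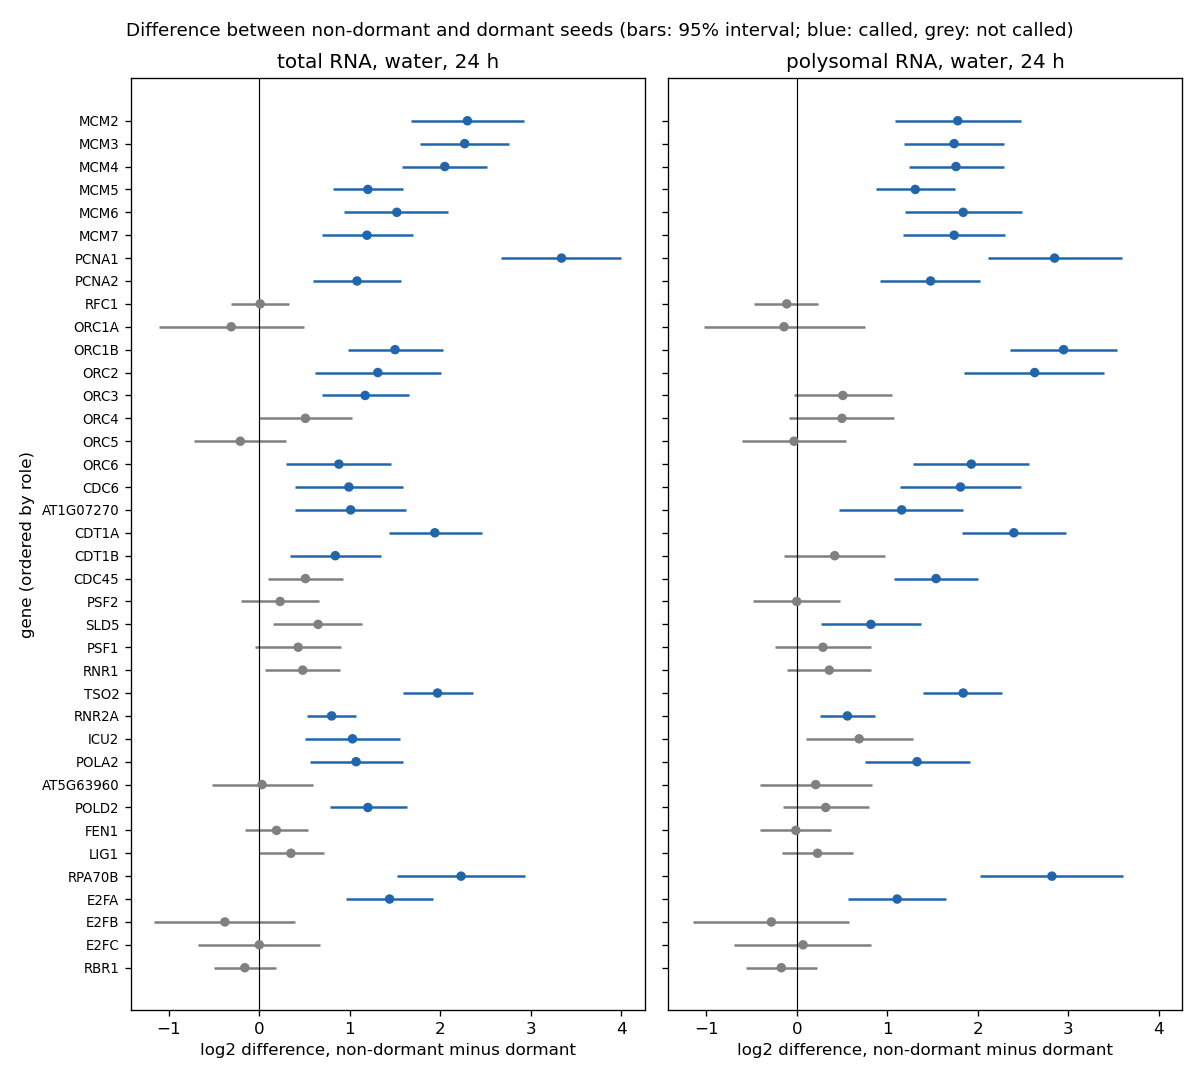
Log2 difference between non-dormant and dormant seeds after 24 h in water for the 38 genes, in total RNA and in polysomal RNA (points with 95% intervals from the fit over 45 arrays; blue called at adjusted p under 0.05, grey not called). PCNA1 (3.34) lies farthest to the right in total RNA and ORC1B (2.95, from a dormant mean under the lower quartile of the arrays) in polysomal RNA, and the interval of no called gene reaches 0.

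At 6 h in water few of the 38 genes differed with dormancy. In total RNA 3 were higher in non-dormant seeds (3.11% of all probe sets), which were the ribonucleotide reductase genes TSO2, RNR1 (1.03 ± 0.21) and RNR2A (0.57 ± 0.13). RNR1 read 7.05, 7.20 and 6.96 against 6.44, 6.34 and 5.34, and RNR2A 9.12, 9.15 and 9.19 against 8.67, 8.72 and 8.36, neither with overlap. RFC1 was the 1 gene that was lower (2.82% of all probe sets), reading 7.22, 7.16 and 7.03 against 7.78, 7.53 and 7.66, with a difference of -0.52 ± 0.16 (limma adjusted p = 0.039). The RFC1 call was lost without any 1 of 5 of the 6 arrays (all but the second dormant array), and the RNR2A call without the third dormant array. In polysomal RNA 8 genes and 14.7% of all probe sets had an unadjusted p under 0.05. There 0 genes were lower, as were 609 of all 27827 probe sets, and 5 genes were higher (2.3% of all probe sets). They were TSO2 (2.77 ± 0.19), PCNA2 (1.23 ± 0.24), ORC4 (0.91 ± 0.25), POLA2 (0.84 ± 0.25) and RNR1 (0.69 ± 0.21). PCNA2 read 6.92, 6.49 and 6.64 against 5.50, 5.34 and 5.50 there, clearly apart, while the calls of ORC4, POLA2 and RNR1 were each lost without several single arrays. The medians of the 38 genes were 0.08 and 0.10, against -0.02 and 0.01 for all probe sets. None of the 6 MCM genes was called at 6 h, with total RNA differences of -0.08 to 0.26.

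Whether the dormancy difference changed with time was tested as an interaction. In total RNA non-dormant minus dormant seeds was shifted upward at 24 h from 6 h for 15 genes (limma, 5.01% of all probe sets). A downward shift was called for 0 genes, and for 1200 of all 27827 probe sets. An unadjusted p under 0.05 was found for 19 genes and 21.6% of all probe sets. The 15 genes were the 6 MCM genes, PCNA1, ORC1B, ORC2, CDC6, CDT1A, PSF1, POLD2, RPA70B and E2FA. For PSF1 the difference went from -0.63 at 6 h to 0.43 at 24 h, neither called. PCNA1 changed most, by 3.75 ± 0.46 (limma adjusted p = 2.81e-07). In polysomal RNA 14 genes had an upward shift (4.17% of all probe sets), ORC1B and RPA70B among them (2.91 ± 0.39 and 3.03 ± 0.52). The sizes of these 2 shifts are uncertain, since some of their group means lay under the lower quartile of the arrays. For ORC1B these were both groups at 6 h and the dormant group at 24 h, and for RPA70B the non-dormant group at 6 h. Only TSO2 had a downward shift (3.18% of all probe sets), with -0.93 ± 0.29 (adjusted p = 0.0382), a call that was lost without any 1 of 6 arrays. In total RNA the TSO2 interaction was -0.68 (95% interval -1.22 to -0.13, adjusted p = 0.12). Medians over the 38 genes were 0.62 and 0.46, against -0.01 and -0.06 for all probe sets. Without the first total RNA array of non-dormant seeds at 24 h the count of 15 was 9.

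Replication genes also rose from 6 h to 24 h within each kind of seed. These comparisons share their 24 h and 6 h arrays with the comparisons above. In total RNA of non-dormant seeds in water 31 genes rose (16.7% of all probe sets), with a median of 1.07 against -0.08. PCNA1 rose by 4.13 ± 0.33 from 6 h arrays of 2.98, 2.89 and 3.80, the MCM genes by 1.92 (MCM5) to 3.61 (MCM2), CDT1A by 3.09 ± 0.25, RPA70B by 2.77 ± 0.35 and ICU2 by 2.40 ± 0.26. The 6 h and 24 h arrays of these genes were far apart. E2FB was the 1 gene that fell (15.1% of all probe sets), from 7.35, 7.16 and 7.02 to 6.09, 6.20 and 6.17. It fell by 1.02 ± 0.38 (limma adjusted p = 0.0377). Its groups did not overlap, but the call was lost without any 1 of the 6 arrays. TSO2 and RNR2A, already high at 6 h, were not called, with 0.01 (95% interval -0.38 to 0.40) and 0.14 (-0.13 to 0.41).

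In total RNA of dormant seeds 19 genes and 29.3% of all probe sets had an unadjusted p under 0.05 over the same time. The median was 0.59 against -0.04. While 2367 of all 27827 probe sets fell, 0 of the 38 genes did, and 18 genes rose (9.61% of all probe sets). All 6 MCM genes were among them, from 0.73 ± 0.19 (MCM5) to 1.46 ± 0.23 (MCM4), and so were the 4 polymerase genes, with ICU2 at 1.73 ± 0.26. MCM4 read 4.23, 4.07 and 4.03 at 6 h and 5.30, 5.73 and 5.69 at 24 h. RNR1 rose by 1.72 ± 0.21, PCNA2 by 1.25 ± 0.24, CDT1A by 1.20 ± 0.25, and ORC5 and ORC4 by 1.15 and 0.98. PCNA1, in contrast, was not called in total RNA of dormant seeds in water (0.38, 95% interval -0.29 to 1.04), nor was E2FA (-0.19, -0.68 to 0.29). The MCM3 rise (0.75) lost its call without any 1 of 3 arrays, and 11 genes were called when only these 6 arrays were fitted. In polysomal RNA of dormant seeds in water PCNA1 read 2.98, 1.86 and 2.26 at 6 h and 5.04 and 4.84 at 24 h, without overlap. That 6 h mean lay under the lower quartile of the arrays. In total RNA of dormant seeds with cordycepin PCNA1 read 3.34, 2.78 and 3.34 at 6 h and 4.25, 4.62 and 3.93 at 24 h, also without overlap.

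In polysomal RNA in water 27 genes rose in non-dormant seeds (17.8% of all probe sets) and 15 in dormant seeds (7.94% of all probe sets). PCNA1 rose by 5.06 and MCM2 by 3.82 in the former. With cordycepin 25 genes rose in total RNA of non-dormant seeds (15.8% of all probe sets) and 24 in their polysomal RNA (15.1% of all probe sets). In dormant seeds the counts with cordycepin were 14 (9.46% of all probe sets) and 18 (7.8% of all probe sets). With cordycepin E2FB fell in non-dormant seeds, with -1.30 in total RNA (13.6% of all probe sets fell) and -1.37 in polysomal RNA, where E2FC fell too, with -1.19 (13.9% of all probe sets fell). RNR2A fell in polysomal RNA of dormant seeds in cordycepin, with -0.56 (6.62% of all probe sets fell).

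Cordycepin asks how far these differences depend on new transcription. After 6 h none of the 38 genes differed between cordycepin and water in any of the 4 comparisons (limma, with 8, 3, 1 and 3 genes at an unadjusted p under 0.05 in total RNA of dormant and non-dormant seeds and polysomal RNA of dormant and non-dormant seeds). Few probe sets were called anywhere in those comparisons, with 0.201%, 0.0827%, 0.0108% and 0.0252% in that order. How far cordycepin stopped transcription in these seeds was not measured.

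At 24 h in total RNA of non-dormant seeds MCM3, MCM4, CDT1A and RPA70B were lower with cordycepin, 4 of 38 genes where 1.74% of all probe sets were lower. MCM3 read 5.43, 5.58 and 5.54 with cordycepin and 6.90, 6.83 and 6.44 in water, and RPA70B 4.16, 4.46 and 3.66 against 5.37, 5.24 and 5.50. Both were apart from their water arrays, with differences of -1.21 ± 0.24 and -1.28 ± 0.35 (limma adjusted p = 0.00168 and 0.0307). CDT1A differed by -0.91 ± 0.25 and MCM4 by -0.82 ± 0.23. PCNA1, at 6.40, 6.34 and 6.22 with cordycepin, lay below all its water arrays without being called (-1.03, 95% interval -1.70 to -0.36, adjusted p = 0.0806). The median was -0.28 for the 38 genes and 0.01 for all probe sets, and 4 genes had a positive difference. The calls of CDT1A, MCM4 and RPA70B were each lost without several single arrays, and the count of called genes was 1 to 3 when 1 array was left out.

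In polysomal RNA of non-dormant seeds at 24 h no gene was called (limma), where 2.7% of all probe sets were called in either direction. The median was -0.34 against 0.01, and 15 genes and 12.1% of all probe sets had an unadjusted p under 0.05. In dormant seeds 1 gene was lower in total RNA (0.456% of all probe sets), TSO2, which read 5.25, 5.36 and 5.37 with cordycepin against 6.41, 6.32 and 6.44, a clear gap and a difference of -1.06 ± 0.19 (limma adjusted p = 0.00153). In their polysomal RNA no gene was called, where 0.377% of all probe sets were. There 5 genes and 8.15% of all probe sets had an unadjusted p under 0.05.

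The dormancy difference was also present in cordycepin. At 24 h 20 genes were higher in total RNA of non-dormant seeds (8.86% of all probe sets) with a median of 0.69, and 18 in polysomal RNA (7.7% of all probe sets) with a median of 0.81. The water and cordycepin comparisons at 24 h have no array in common, but take their spread from the same fit. In total RNA they shared 18 genes, 78.3% of the water list and 90% of the cordycepin list (60.6% and 79% over all probe sets called higher). RNR1 and FEN1 were called with cordycepin and not in water. In polysomal RNA they shared 17 genes, 81% and 94.4% (55.2% and 74% over all probe sets called higher). At 24 h 15 genes were higher in all 4 settings, as were 4.45% of all probe sets: MCM2 to MCM7, PCNA1, PCNA2, ORC1B, CDT1A, TSO2, RNR2A, POLA2, RPA70B and E2FA. At 6 h with cordycepin TSO2, CDC6, PCNA2 and RNR1 were higher in total RNA (2.45% of all probe sets), and TSO2 alone in polysomal RNA (1.37% of all probe sets). There 7 and 3 genes had an unadjusted p under 0.05, against 18% and 11.9% of all probe sets. The polysomal count at 24 h with cordycepin rested on groups of 2 arrays, and it was 8 without the first array of non-dormant seeds.

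Whether cordycepin changed the dormancy difference at 24 h was tested directly. No gene was called in total RNA (limma, 0.295% of all probe sets) or in polysomal RNA (0.18% of all probe sets). In each RNA type 3 genes had an unadjusted p under 0.05, against 7.49% and 5.74% of all probe sets. Nor was any gene called when the effect of cordycepin in non-dormant seeds was compared between 24 h and 6 h. The shares of all probe sets called there were 0.765% in total and 0.453% in polysomal RNA. Unadjusted p values under 0.05 were found for 9 and 8 genes, against 7.93% and 6.54% of all probe sets.

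Polysomal and total RNA were compared on the deposited scale, which gives no absolute share of a transcript on polysomes. The medians of the arrays at 6 h were 3.86 to 3.94 in polysomal and 4.08 to 4.27 in total RNA. At 6 h 7 genes were higher on polysomes in dormant seeds (12.8% of all probe sets) and 4 lower (11.5%), and in non-dormant seeds 7 were higher (13.2%) and 3 lower (11.6%). In both kinds of seed ORC5, PSF2, RNR2A, POLD2 and RBR1 were higher and MCM5 and CDC6 were lower. RNR2A, for example, was higher by 0.95 ± 0.13 and 0.81 ± 0.13, and CDC6 had -1.37 ± 0.29 and -0.90 ± 0.29. PCNA1 was lower in dormant seeds (-1.27 ± 0.33), where its 3 polysomal arrays read 2.98, 1.86 and 2.26 against 4.29, 3.37 and 3.25 in total RNA. The polysomal means of PCNA1 in dormant seeds and of CDC6 in both kinds of seed lay under the lower quartile of the arrays, so the size of these differences is uncertain.

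At 24 h no gene was lower on polysomes (limma), where 2464 of all 27827 probe sets were in dormant and 2225 in non-dormant seeds. In either direction 13 and 14 of the 38 genes had an unadjusted p under 0.05, against 30.4% and 29.3% of all probe sets. In dormant seeds 5 were higher (7.7% of all probe sets), namely ORC3 (1.39 ± 0.27), POLD2 (1.27), MCM3 (0.85 ± 0.27), PSF2 (0.79) and RNR2A (0.75 ± 0.15). In non-dormant seeds 7 were higher (6.82% of all probe sets), among them ORC1B (1.37 ± 0.26), MCM7 (1.09 ± 0.25), ORC2 (1.01 ± 0.34) and CDC45 (0.60). MCM7 polysomal RNA read 7.21, 7.13 and 7.03, above its total RNA at 6.02, 6.14 and 5.95. The medians of the 38 genes were 0.31 and 0.41 at 24 h, against 0.06 and 0.04 for all probe sets, and 0.12 and 0.22 at 6 h, against 0.02 and 0.09. In dormant seeds they were 0.17 at 24 h without the first polysomal array and 0.02 at 6 h without the third, and in non-dormant seeds 0.13 at 6 h without the second total RNA array. After quantile normalization of the arrays the 7 calls in non-dormant seeds became 3.

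Whether the dormancy difference at 24 h was larger in polysomal than in total RNA was tested as an interaction. No gene was called (limma), where 0.00719% of all probe sets were. An unadjusted p under 0.05 was found for 5 genes and 4.02% of all probe sets. ORC1B came nearest, with 1.44 (95% interval 0.65 to 2.24, adjusted p = 0.336), and CDC45 gave 1.02 (0.40 to 1.65, adjusted p = 0.526). The change of the polysomal difference with time likewise gave no call in dormant seeds (0.0359% of all probe sets) or non-dormant seeds (0.169% of all probe sets). For it 8 and 9 genes had an unadjusted p under 0.05, against 5.47% and 6.25% of all probe sets. In non-dormant seeds ORC1B had 1.59 (0.85 to 2.34, adjusted p = 0.0589) there.

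The 38 genes did not all follow 1 pattern over the 16 groups. As a description, with no test, each gene's group means were correlated with the mean of MCM2 to MCM7 over the 16 groups, which share arrays and normalization. Outside the MCM genes, r was highest for PCNA1 (0.98), CDT1A (0.97), ICU2 (0.97), POLA2 (0.96), SLD5 (0.94) and RPA70B (0.94). TSO2 (0.42), RNR2A (0.10), ORC1A (0.25) and RFC1 (0.38) were much less alike. E2FB (-0.90) and E2FC (-0.60) ran the other way. PCNA1 had the widest range of group means, from 2.28 to 7.79, while RFC1 and LIG1 spanned 0.68 each.

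Other genes of the same pathway were taken from lists by locus. Beside the counts of these lists stand the 11.6% of all probe sets called higher in total RNA and the 10.3% in polysomal RNA. In total RNA 2423 of all 27827 probe sets were called lower, and 30% had an unadjusted p under 0.05. Of 24 further replication genes, 9 were higher in total RNA of non-dormant seeds at 24 h in water and 0 lower (limma, 12 at an unadjusted p under 0.05), with a median of 0.51. The largest differences were those of RPA70D (3.24), AT3G52630 (2.86), the primase subunit gene POLA3 (2.16) and the RPA gene RPA2 (1.56). In polysomal RNA 9 of the 24 were higher as well. All 5 genes of deoxynucleotide synthesis other than ribonucleotide reductase were higher in both RNA types, led in total RNA by THY-2 (1.71), a thymidylate synthase gene, and DUT1 (1.42), for the enzyme that removes dUTP. Of 5 DP and DEL genes, partners and relatives of E2F factors, DEL1 (0.99) and DPA (0.74) were higher.

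Genes for packing new DNA were partly higher. FAS1 (1.10), a subunit of chromatin assembly factor 1, was higher while FAS2 (-0.24) and MSI1 (0.46) were not called. Of 5 genes for the replicative histone H3.1, 3 were higher, with AT1G09200 at 2.68, but these genes are near-identical copies whose signals the probes may not separate. Of 16 genes of G2 and mitosis, such as B-type cyclins, CDKB kinases and Aurora kinases, none was called in total RNA (limma, 0 at an unadjusted p under 0.05), with differences of -0.62 (CDKB2;1) to 0.58 (CYCB1;4) and a median of 0.02. The median of their group means lay between 2.62 and 3.34 in all 16 groups, below the medians of the arrays. These levels are close to the lower quartiles of the arrays (2.24 to 2.92), so a missing call says little about these genes. In polysomal RNA CDKB1;1 (0.96) and AUR3 (1.26), both named after their values were seen, were higher. From 6 h to 24 h in total RNA of non-dormant seeds 12 of the 24 further replication genes rose and 3 fell, where 16.7% of all probe sets rose and 15.1% fell. None of the 16 G2 and mitosis genes was called (limma, 0 at an unadjusted p under 0.05, against 39% of all probe sets).

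**Figure D5:**
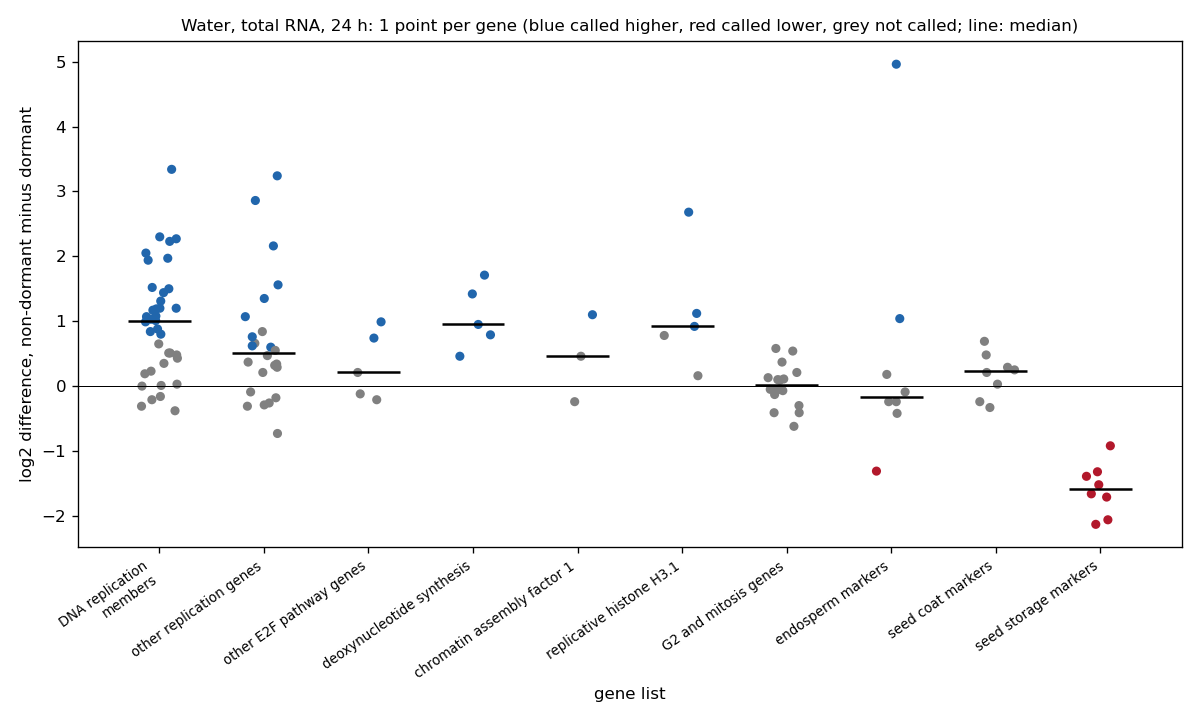
Log2 difference between non-dormant and dormant seeds in total RNA after 24 h in water for each gene of each list (1 point per gene; blue called higher, red called lower, grey not called; line at the list median). The 38 replication genes have their median at 1.00 and the 5 deoxynucleotide genes at 0.95, the 16 G2 and mitosis genes centre on 0.02, and the 8 storage genes lie at -2.13 to -0.92.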

How the data were processed

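Gene expression was measured on 45 arrays of seed RNA, and each array was placed in 1 of 16 groups from its title. The values deposited by the authors are log2 values from RMA (background correction, normalization of the arrays to each other and summary of probes), per the submitters' processing notes. RMA sets values relative to the other RNA on an array, so no difference is an absolute amount. The deposited arrays do not share 1 distribution, with medians at 6 h of 4.08 to 4.27 in total and 3.86 to 3.94 in polysomal RNA, and whether both RNA types were normalized together is not stated. The sources used here give no array type, probe set definition or RMA version. The labels' protocols name TriPure and RNeasy extraction, biotin labelling and randomized blocks. Of 27827 probe sets named by locus, 27241 matched a TAIR10.1 table used for names only, and no sequence was used.

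With limma 3.58.1 in R 4.3.3, the 45 arrays were fitted together with a mean for each group, leaving 29 residual degrees of freedom, and a prior of 6.39 degrees of freedom and SD 0.294. Calls were made at an adjusted p (Benjamini-Hochberg) under 0.05 over all probe sets within each of 37 comparisons. SE and 95% intervals come from that fit, whose spread is shared by all 16 groups and both RNA types. The script was tested on simulated data for non-dormant against dormant seeds in total RNA at 24 h in water. A difference was given to 200 probe sets there, and 45% of the differences of 1 log2 unit and 96% of those of 2 were called. In the measured arrays 5638 probe sets were called in that comparison. The adjusted p depends on how many probe sets differ, so these shares do not carry over to the comparisons made here. How many true differences were missed in them is not known, and a gene that was not called may still differ. The members and lists were chosen with earlier results of these data known. Every member may be named, with array values for the main members of each role and for members called against the common direction, and of each other list up to 4 genes with the largest difference. Groups share replicate numbers. Arrays with the same number had a median correlation of deviations from their group means of 0.016 (-0.099 to 0.1) in total and 0.263 (-0.014 to 0.492) in polysomal RNA. For arrays with different numbers the medians were -0.007 and -0.164, so polysomal arrays with the same number were more alike. The main fit did not take the numbers to pair the arrays. Some polysomal groups lack the third replicate, so their comparisons with full groups also compare replicate numbers in part. Alternatives were a replicate block, quantile normalization, array weights, a trended and robust prior, a filter at a mean log2 of 4, a fit of the compared arrays only, and each array left out in turn.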

Additional observations from a re-analysis of the deposited data

Results flagged for a closer look

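The difference between non-dormant and dormant seeds in water changed from 6 h to 24 h for 15 of the 38 genes in total RNA and for 15 in polysomal RNA, which was tested as an interaction in the limma fit (adjusted p under 0.05). Over all probe sets 5.01% were shifted upward in total RNA, and 4.17% upward and 3.18% downward in polysomal RNA. A positive log2 value means that non-dormant minus dormant seeds was higher at 24 h than at 6 h. In total RNA the interaction was 2.21 for MCM2, 2.35 for MCM3, 1.79 for MCM4, 1.19 for MCM5, 1.36 for MCM6 and 1.15 for MCM7. It was 3.75 for PCNA1, 1.25 for ORC1B, 1.74 for ORC2, 1.45 for CDC6, 1.89 for CDT1A, 1.05 for PSF1, 1.00 for POLD2, 2.18 for RPA70B and 1.04 for E2FA.

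In polysomal RNA it was 1.64 for MCM2, 1.74 for MCM3, 1.75 for MCM4, 1.42 for MCM5, 1.51 for MCM6 and 1.73 for MCM7. It was 2.49 for PCNA1, 2.91 for ORC1B, 2.43 for ORC2, 2.11 for ORC6, 1.79 for CDC6, 2.32 for CDT1A, 1.40 for CDC45 and 3.03 for RPA70B. TSO2 was the 1 gene with a negative value, -0.93. Some group means behind these interactions lay under the lower quartile of the arrays, which leaves their size uncertain. That held in total RNA for ORC1B, ORC2 and RPA70B, and in polysomal RNA for ORC1B, RPA70B, PCNA1 and CDC6. Groups of 2 or 3 arrays are too small for a check of single arrays that stand apart.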

How the results depend on the processing

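No alternative turned the direction of a called difference. Of 341 called differences of single genes, 341 stayed called with the replicate block, 339 with a trended and robust prior, 330 with array weights, 307 after quantile normalization, 271 when only the compared arrays were fitted, and 337 of the 337 left by a low-value filter (17588 probe sets, 37 of the 38 genes). In water at 24 h the counts of genes higher in non-dormant seeds were 21 to 23 in total and 18 to 21 in polysomal RNA when 1 array was left out. Other counts moved by over 1.5 times. Fitting the compared arrays only took the dormancy counts from 4 to 1 (total RNA, 6 h, water, and likewise with cordycepin), 5 to 2 (polysomal, 6 h, water) and 18 to 9 (polysomal, 24 h, cordycepin). It took those of time from 18 to 11 (dormant, water, total RNA) and 19 to 9 (dormant, cordycepin, polysomal), cordycepin in dormant total RNA at 24 h from 1 to 0, polysomal against total RNA in dormant seeds from 11 to 5 at 6 h and 5 to 2 at 24 h, and RNA type by time in non-dormant seeds from 0 to 2. Over all probe sets it took the dormancy counts at 6 h from 1651 to 313 and 1249 to 443 (total and polysomal, water) and 1343 to 221 and 824 to 160 (cordycepin), those of polysomal RNA at 24 h from 5135 to 3286 (water) and 3773 to 1753 (cordycepin), polysomal against total RNA in dormant seeds at 6 h from 6772 to 2891, and cordycepin in dormant total RNA at 24 h from 321 to 1, so the background shares move too. Quantile normalization took polysomal dormancy at 6 h in water from 5 to 3, cordycepin in non-dormant total RNA at 24 h from 4 to 2 and polysomal against total RNA in non-dormant seeds at 24 h from 7 to 3, and moved the median of RNA type by time in non-dormant seeds from 0.19 to -0.03. Array weights took the latter 2 cordycepin and polysome counts to 8 and 14, cordycepin in non-dormant polysomal RNA at 24 h from 0 to 2, cordycepin by time in total RNA from 0 to 2 and RNA type by time in non-dormant seeds from 0 to 4. The filter gave 4, 1 and 2 for these last 3 and 11 for the polysome count. The replicate block, although the numbers were not taken to pair the arrays, gave 2, 1 and 1 for the same 3, took dormancy with cordycepin at 6 h from 4 to 7 (total RNA) and 1 to 2 (polysomal), and polysomal against total RNA in dormant seeds at 24 h from 5 to 8. Leaving out 1 array gave 2 to 4 (total RNA, the lowest without the third dormant array) and 2 to 5 (polysomal) for dormancy at 6 h in water, 1 to 4 for total RNA at 6 h with cordycepin and 8 to 17 for polysomal RNA at 24 h with cordycepin. For cordycepin against water it gave 0 to 1 (dormant, total RNA, 6 h), 1 to 3 (non-dormant, total RNA, 24 h) and 0 to 2 (non-dormant, polysomal, 24 h). For polysomal against total RNA it gave 5 to 9 (non-dormant, 6 h), 3 to 4 (dormant, 24 h) and 3 to 4 (non-dormant, 24 h). Dormancy by time gave 9 to 15 in total RNA, cordycepin by time 0 to 1 in each RNA type, and RNA type by time in dormant seeds 0 to 1. Medians over the 38 genes moved, when 1 array was left out, to 0.66 to 0.99 for dormancy with cordycepin in polysomal RNA at 24 h, -0.39 to 0.12 for dormancy by cordycepin there, -0.63 to -0.18 and -0.44 to -0.11 for cordycepin in non-dormant and dormant polysomal RNA at 24 h, -0.47 to -0.05 for cordycepin by time in polysomal RNA, 0.45 to 0.86 for time in dormant polysomal RNA in water, and 0.02 to 0.27 for RNA type by time in dormant seeds. Fewer arrays give fewer degrees of freedom, and for the other settings the cause was not tested. Array number and signal under the lower quartile of the arrays limit these values. In water at least 1 group at 6 h was under it for ORC1B, AT1G07270, RPA70B, CDC6, PCNA1, CDC45 and ORC2, and the dormant groups at 24 h for ORC1B and AT1G07270.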

Other observations

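In polysomal RNA 7 of the 38 genes (18.4%) had replicate 2 as the lowest array of all 8 polysomal groups, namely ORC1A, CDT1B, AT5G63960, FEN1, E2FA, E2FB and E2FC, where 5.14% of all 27827 probe sets did. Of these groups 3 hold 2 arrays and the others 3. For E2FB in water, replicate 2 read 6.64 in dormant and 6.17 in non-dormant seeds at 6 h, and 5.51 and 4.92 at 24 h. In total RNA replicate 2 was the lowest array in 2 of 8 groups for ORC1A, CDT1B, AT5G63960, E2FA and E2FB. It was the lowest in 3 groups for FEN1 and in 1 for E2FC. The share over all probe sets was not counted for total RNA.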
